A study of Rattus norvegicus with 16 samples.

Results

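The genes described here encode the subunits of oxidative phosphorylation, the 5 protein complexes of the inner mitochondrial membrane. They were followed in the rat epididymis for 18 h after the ducts from the testis had been tied. Members were chosen by gene symbol alone (Nduf with a following a, b, c, s or v, Sdha to Sdhd, Uqcr, Cox4 to Cox8 and Atp5), and where a gene had several probe sets the brightest one, averaged across the 16 arrays, stood for it. This gave 86 genes of the 14217 on the array. Of these, 76 were subunits and 10 were assembly factors or other genes that the symbols also take in. Tests were run where a log2 value of 5 was reached by 4 or more arrays, as it was for 75 of the 86 members and 8344 genes in all.

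The tissue was the initial segment, the stretch of the epididymis nearest the testis, from adult male Sprague-Dawley rats. The groups were sham operation, 6 h EDL, 12 h EDL and 18 h EDL, with 4 arrays each and 1 tissue sample per array. EDL is efferent duct ligation, in which the ducts that carry testicular fluid to the epididymis are tied. Per the labels, ligation was unilateral and the sham operation was made on the opposite side, so the sham tissue also came from ligated animals. No label says which sham sample shares an animal with which ligated one, and sham samples carry 1 time label for all 3 comparisons. The labels call the replicates biological. The same 4 sham arrays stood behind each comparison with sham. The whole dissected tissue was measured, so that fewer cells of a type and less RNA per cell cannot be told apart.

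Complex I takes electrons from NADH and complex II takes them from succinate. Complex III passes them to cytochrome c and complex IV passes them on to oxygen. Complexes I, III and IV pump protons, and complex V, the ATP synthase, uses the returning protons to make ATP. Complex II is also an enzyme of the citrate cycle and is the complex whose subunits are all encoded in the nucleus. In the other complexes some subunits come from mitochondrial DNA, and 0 of the 13 mitochondrial messenger RNAs could be matched to a probe set, so the values below are those of nuclear genes.

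Nuclear genes of these complexes are often described as sharing promoter sites for ETS proteins (GABP is the usual example), NRF1 and YY1. The sequence just before the start of each gene was searched because Etv4 and Etv5, genes of other ETS proteins, changed in the same arrays. Etv5 averaged 3.82 on the log2 scale at 12 h EDL and 9.46 in sham, a change of -5.64 ± 0.57 (SE, adjusted p = 3.17e-05, limma). Etv4 averaged 8.27 at 12 h EDL and 11.35 in sham, a change of -3.08 ± 0.43 (SE, adjusted p = 0.000468, limma). Etv1, of the same family, changed by -1.99 ± 0.19 at 12 h EDL minus sham (SE, adjusted p = 1.99e-05, limma). Gabpa, a gene of GABP itself, was not called. It changed by -0.18 ± 0.18 at 12 h (adjusted p = 0.684, limma) and by -0.15 ± 0.18 at 18 h EDL minus sham (adjusted p = 0.726, limma). Promoters from RefSeq (assembly GRCr8) were matched for 69 of the 75 tested members, and the 250 bases before the start were read on both strands. The 5 stretches below are the last 200 bases before the start of 5 members that held such sites. Capitals mark the ETS core CCGGAAG, the NRF1 motif (GCGCA and GCGC with any 1 base between them) and the YY1 motif AAGATGGCG, or the reverse complement of each. Sdhb has 1 ETS core and lies on the + strand at chr5:158547734-158547933. Uqcrc2 has 2 ETS cores and lies on the + strand at chr1:184599040-184599239. Cox8a has 2 ETS cores and lies on the - strand at chr1:213833624-213833823. Atp5pf has 1 YY1 motif followed by 1 ETS core and lies on the - strand at chr11:37375102-37375301. Sdha has 2 NRF1 motifs and lies on the + strand at chr1:30764353-30764552.
Sdhb: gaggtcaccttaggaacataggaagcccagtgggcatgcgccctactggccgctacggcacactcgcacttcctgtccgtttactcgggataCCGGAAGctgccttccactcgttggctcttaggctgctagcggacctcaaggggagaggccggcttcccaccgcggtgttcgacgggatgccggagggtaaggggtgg
Uqcrc2: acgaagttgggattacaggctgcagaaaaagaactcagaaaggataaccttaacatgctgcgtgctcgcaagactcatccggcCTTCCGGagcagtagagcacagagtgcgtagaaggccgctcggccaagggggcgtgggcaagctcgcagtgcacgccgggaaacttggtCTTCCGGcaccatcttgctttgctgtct
Cox8a: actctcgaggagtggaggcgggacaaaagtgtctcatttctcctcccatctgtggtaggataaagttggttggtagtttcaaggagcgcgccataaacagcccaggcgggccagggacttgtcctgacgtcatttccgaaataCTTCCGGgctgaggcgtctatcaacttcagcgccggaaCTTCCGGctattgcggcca
Atp5pf: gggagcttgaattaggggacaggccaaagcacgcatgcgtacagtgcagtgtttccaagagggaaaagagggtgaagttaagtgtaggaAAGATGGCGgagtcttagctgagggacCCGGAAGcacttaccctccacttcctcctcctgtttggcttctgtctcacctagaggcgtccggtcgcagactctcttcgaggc
Sdha: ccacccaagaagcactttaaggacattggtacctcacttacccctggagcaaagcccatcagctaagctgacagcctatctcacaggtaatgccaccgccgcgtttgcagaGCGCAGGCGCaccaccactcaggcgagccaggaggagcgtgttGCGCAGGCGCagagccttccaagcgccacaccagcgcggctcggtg

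The ETS core was present in 20 of the 69 member promoters (29.0%), against 16.3% of the 7746 promoters of tested genes and 7.27% of all 33469 promoters. The NRF1 motif was present in 11 member promoters (15.9%), against 9.53% of promoters of tested genes and 3.75% of all promoters. The YY1 motif was found in 1 member promoter (1.45%, Atp5pf), against 1.41% of promoters of tested genes and 0.693% of all. A TATA box (TATAAA) was found in 7 member promoters (10.1%), against 6.03% and 12.9%. In the members, 0 ETS cores overlapped an NRF1 or YY1 motif. The matches are a description of these letters and do not show that a factor binds there. The 20 members with an ETS core had median changes of -0.03, 0.0 and -0.03 at 6, 12 and 18 h EDL minus sham, against -0.01, 0.01 and -0.01 for the 49 members whose promoter held no such core. At 12 h EDL minus sham the changes ran from -0.22 to 0.23 in members with the core and from -0.2 to 0.3 in members without it. Whether these sets of members differed was not tested. Only the exact letters CCGGAAG were searched, so a member without the core is not shown to lack ETS sites of other letters.

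The labelled tissue was checked against its markers. The 6 measured markers of initial segment epithelium had a mean level of 12.33 to 13.03 on the sham arrays, 12.82 to 13.12 at 6 h EDL, 11.17 to 12.92 at 12 h EDL and 12.3 to 12.65 at 18 h EDL. Their median change was 0.11 at 6 h, -0.61 at 12 h and -0.34 at 18 h EDL minus sham. In limma's test described below, 0, 1 and 1 of the 6 were called lower at these times, against 0.36%, 8.75% and 11.1% of all tested genes called. Sperm transcripts were lower after ligation. Of 7 sperm genes on the array, 3 were tested (Smcp, Odf1 and Prm1). All 3 fell by 12 h EDL, with a median of -4.05 on the log2 scale. The minimum of 4 arrays equals the size of the sham group, so a gene high in sham alone could pass it. The fall of these 3 is therefore a description. The mean level of all 7 was 4.25 to 5.96 on the sham arrays and 2.67 to 3.5 at 12 h EDL. The arrays also divided along their replicate numbers in every group, and replicates 3 and 4 of 12 and 18 h EDL differed from those of sham and 6 h EDL in a control transcript added during labelling. Its probe sets averaged 2.22, the lowest value of the table, on the first 4 of these arrays and on all 8 arrays of replicates 1 and 2, and 7.1 to 7.93 on the other 4. In replicates 3 and 4, ligation for 12 or 18 h and this array set therefore cannot be told apart.

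After ligation, 0 of the 75 tested subunit and related genes were called in any comparison, where a call is a Benjamini-Hochberg adjusted p under 0.05 from limma over all 13410 tested probe sets. At 6 h EDL minus sham, 0.36% of all tested genes were called. At 12 h EDL minus sham, 8.75% were called, and at 18 h EDL minus sham 11.1%. Between times, 4.73% of genes were called at 12 h EDL minus 6 h EDL and 0.0% at 18 h EDL minus 12 h EDL. At 12 and 18 h EDL minus sham 730 and 927 of the 8344 genes were called, with 0 members among them. Among the 2227 tested genes with a mean of 9 or more, 0.359%, 9.88% and 12.5% were called at 6, 12 and 18 h EDL minus sham, 6.38% at 12 h EDL minus 6 h EDL and 0.0% at 18 h EDL minus 12 h EDL.

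Without adjustment, the members that reached a p under 0.05 numbered 0 at 6 h, 1 at 12 h and 0 at 18 h EDL minus sham. They numbered 2 at 12 h EDL minus 6 h EDL and 0 at 18 h EDL minus 12 h EDL. The gene at 12 h EDL minus sham was Sdhb, and those at 12 h EDL minus 6 h EDL were Sdhb and Atp5if1. Over all tested genes the share with such a p was 6.02% at 6 h, 20.9% at 12 h and 23.3% at 18 h EDL minus sham, and 19.4% and 6.74% between times. The 4 arrays of the 2 groups did not overlap for 0 members at 6 h EDL minus sham (4.84% of all tested genes), 1 at 12 h (12.9%) and 0 at 18 h (15.7%). They did not overlap for 2 members at 12 h EDL minus 6 h EDL (12.1%) and 1 at 18 h EDL minus 12 h EDL (2.34%).

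The changes of the members were also small in size. The median member changed by -0.01 on the log2 scale at 6 h, 0.01 at 12 h and -0.02 at 18 h EDL minus sham, against 0.02, 0.03 and 0.03 for all tested genes. The changes ran from -0.18 to 0.13 at 6 h, from -0.22 to 0.3 at 12 h and from -0.23 to 0.48 at 18 h. Regardless of sign, the median size was 0.04, 0.06 and 0.07 at the 3 times, against 0.11, 0.17 and 0.18 for all tested genes. For tested genes with a mean of 9 or more it was 0.08, 0.15 and 0.17. Changes smaller than 0.25 on the log2 scale (1.19-fold) were measured for 75, 72 and 72 of the 75 members. So small a change was measured for 79.6%, 62.9% and 60.6% of all tested genes. Among those with a mean of 9 or more the share was 89.7%, 66.7% and 64.6%.

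**Figure D1:**
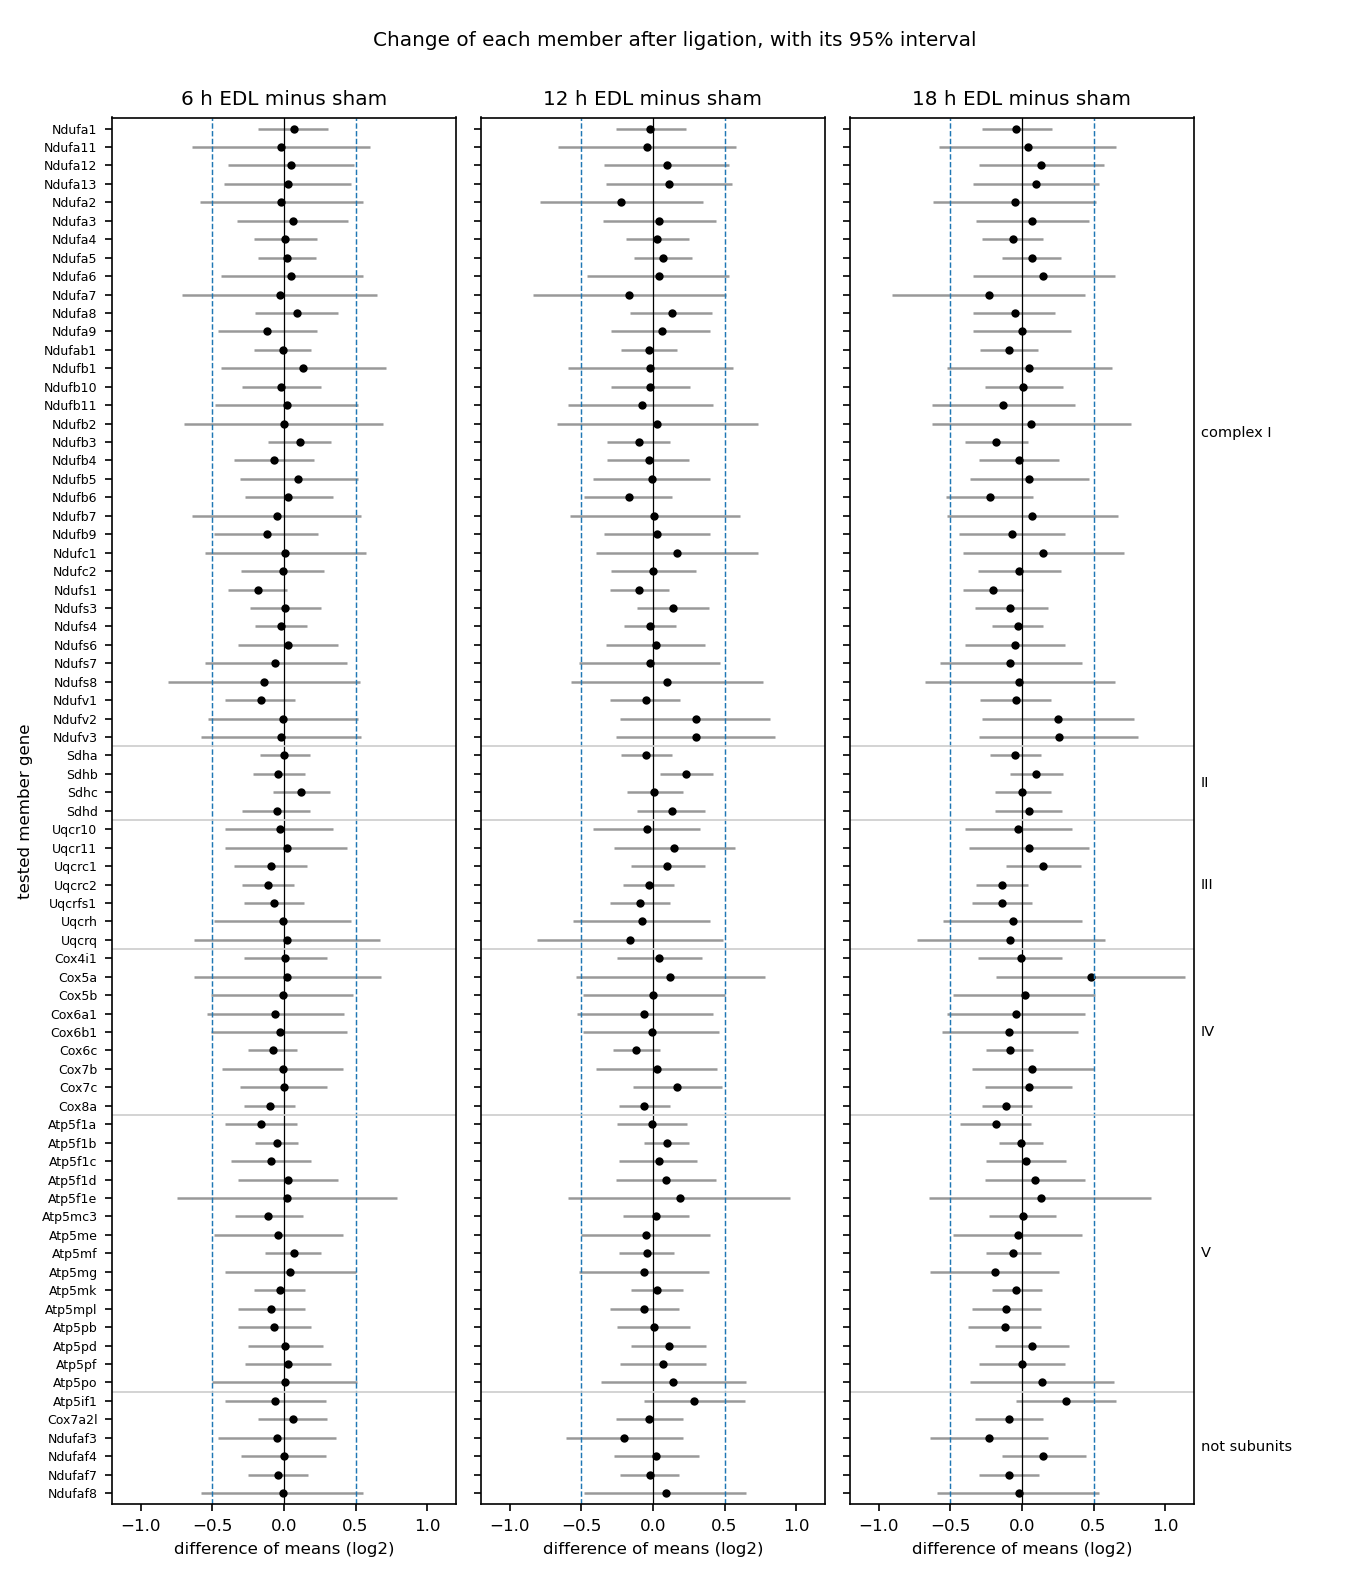
Change of each of the 75 tested members after ligation. Points are differences of group means on the log2 scale for 6, 12 and 18 h EDL minus sham (4 arrays per group), grey bars are 95% intervals of limma's fit, and dashed lines mark 0.5 on either side of 0. The points stay between -0.23 and 0.48, and the bar that passes 1 belongs to Cox5a at 18 h.

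A change that is not called can still be poorly measured, so the intervals were read as well. The 95% interval lay wholly within 0.5 on either side of 0, a 1.41-fold change, for 53 members at 6 h, 48 at 12 h and 47 at 18 h EDL minus sham. The same held for 50.8%, 41.7% and 40.1% of all tested genes, and for 67.0%, 51.9% and 49.1% of those with a mean of 9 or more. Such a count depends on the size of the change as well as on the width of the interval. The median interval over all tested genes reached 0.36 to either side at each of the 3 times. Within 1 on either side, a change of 2-fold, lay 75, 75 and 74 members, and the exception at 18 h was Cox5a. The median interval over the 75 members reached 0.31 to either side of the estimate, and single genes were measured more or less closely than that.

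Complex I is the largest of the complexes and passes electrons from NADH through a flavin and a chain of iron-sulphur clusters to ubiquinone. Of its 35 member genes, 34 were tested, and their median change was -0.01 at 6 h, 0.01 at 12 h and -0.02 at 18 h EDL minus sham. The smallest p at 6 and at 18 h belonged to Ndufs1, which encodes the largest subunit, a carrier of such clusters. Ndufs1 measured 9.12, 9.09, 9.26 and 9.37 on the log2 scale at 6 h EDL and 9.31, 9.35, 9.45 and 9.46 in sham. At 18 h EDL it measured 9.06, 9.08, 9.29 and 9.34. The ligated arrays lay mostly below the sham arrays at both times, and the groups overlapped. The difference was -0.18 ± 0.1 (SE, n = 4 each) at 6 h EDL minus sham (adjusted p = 1.0, limma) and -0.2 ± 0.1 at 18 h EDL minus sham (adjusted p = 0.243, limma).

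Ndufv1 and Ndufv2 form the tip of complex I where NADH is oxidised. Ndufv2 had the smallest p of the complex at 12 h and measured 10.77, 10.8, 10.88 and 11.0 at 12 h EDL, against 10.59, 9.83, 10.92 and 10.92 in sham. The low value is that of sham replicate 2, and the groups overlapped. The difference at 12 h EDL minus sham was 0.3 ± 0.25 (SE, adjusted p = 0.596, limma). Ndufv1 differed by -0.05 ± 0.11 at 12 h EDL minus sham and by -0.04 ± 0.11 at 18 h EDL minus sham (SE). Its 95% interval at 12 h, from -0.3 to 0.19, held 0. Ndufa4, a small subunit placed here by its symbol and now counted with complex IV, differed by 0.03 ± 0.1 at 12 h and -0.06 ± 0.1 at 18 h EDL minus sham (SE). The change with the smallest p at 12 h EDL minus 6 h EDL was that of the accessory subunit Ndufb3, -0.2 ± 0.1 (SE, adjusted p = 0.328, limma). Between 18 h and 12 h EDL it was that of the core subunit Ndufs3, -0.22 ± 0.12 (SE, adjusted p = 0.796, limma).

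Complex II, succinate dehydrogenase, has 4 subunits and all 4 genes were tested. Sdha binds the flavin and succinate, Sdhb carries the iron-sulphur clusters, and Sdhc and Sdhd anchor the enzyme in the membrane. Sdhb measured 10.08, 9.87, 9.91 and 9.9 on the log2 scale at 12 h EDL, against 9.69, 9.59, 9.78 and 9.78 in sham. At 6 h EDL it measured 9.59, 9.61, 9.74 and 9.73. All 4 arrays at 12 h EDL lay above all 4 sham arrays and all 4 arrays at 6 h EDL. The values at 18 h EDL, 9.83, 9.92, 9.82 and 9.67, overlapped with the sham arrays.

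The difference of Sdhb was 0.23 ± 0.09 (SE, n = 4 each) at 12 h EDL minus sham, with an unadjusted p of 0.0173 from limma and an adjusted p of 0.133. At 12 h EDL minus 6 h EDL it was 0.27 ± 0.09, with an unadjusted p of 0.00716 and an adjusted p of 0.1 from limma. Sdhb did not pass the threshold in either comparison. It did so in 1 alternative: with the 3 array sets as a block, the difference was 0.35 ± 0.09 at 12 h EDL minus sham (SE, adjusted p = 0.0276, limma) and 0.39 ± 0.09 at 12 h EDL minus 6 h EDL (adjusted p = 0.0244, limma). Such a block takes the comparison from replicates 1 and 2, where the difference at 12 h EDL minus sham was 0.34 (adjusted p = 0.186 in these 8 arrays alone, limma). In replicates 3 and 4 it was 0.13 (adjusted p = 0.537, limma). Leaving out 1 array at a time gave 0.19 to 0.26 for Sdhb at 12 h EDL minus sham.

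The other 3 subunits of complex II gave no such difference, although whether Sdhb differed from them was not tested. Sdha differed by -0.05 ± 0.08 at 12 h EDL minus sham and by -0.05 ± 0.08 at 18 h EDL minus sham (SE). Sdhc differed by 0.01 ± 0.09 and 0.0 ± 0.09 at these times, and Sdhd by 0.13 ± 0.11 and 0.05 ± 0.11. Sdhc had the smallest p of the complex at 6 h, with 9.4, 9.44, 9.24 and 9.19 at 6 h EDL against 9.12, 9.12, 9.33 and 9.24 in sham. The groups overlapped, and the difference of 0.12 ± 0.09 was not called (SE, adjusted p = 1.0, limma). The 95% intervals of all 4 subunits lay within 0.5 on either side of 0 in each of the 5 comparisons.

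Complex III holds the Rieske iron-sulphur protein Uqcrfs1, the core proteins Uqcrc1 and Uqcrc2, the hinge protein Uqcrh and small subunits. Uqcrb was not among the members, because its probe set is shared with a second gene. All 7 genes that were members were tested. Their median change was -0.03 at 6 h, -0.04 at 12 h and -0.06 at 18 h EDL minus sham. Uqcrc2 had the smallest p at 6 and 18 h. It measured 9.9, 9.98, 9.76 and 9.78 at 18 h EDL, against 10.12, 9.92, 10.03 and 9.92 in sham. The groups overlapped, and the difference was -0.14 ± 0.08 (SE, adjusted p = 0.355, limma). Uqcrfs1 measured 10.64, 10.8, 10.58 and 10.61 at 12 h EDL, against 10.77, 10.7, 10.73 and 10.79 in sham, a difference of -0.09 ± 0.1 (SE, adjusted p = 0.71, limma). Uqcrc1 lay in the other direction, with 0.2 ± 0.12 at 12 h EDL minus 6 h EDL (SE, adjusted p = 0.448, limma).

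Complex IV, cytochrome c oxidase, has nuclear subunits around a core that is encoded in mitochondrial DNA. Several of them exist as isoforms made in particular tissues. Of its 15 member genes, 9 were tested: Cox4i1, Cox5a, Cox5b, Cox6a1, Cox6b1, Cox6c, Cox7b, Cox7c and Cox8a. Their median change was -0.01 at 6 h, 0.0 at 12 h and -0.01 at 18 h EDL minus sham. Cox4i1, the common form of a regulatory subunit, measured 12.43, 12.24, 12.57 and 12.62 at 18 h EDL, against 12.5, 12.08, 12.65 and 12.68 in sham. The groups overlapped and the difference was -0.01 ± 0.14 (SE, adjusted p = 0.976, limma). Cox6c had the smallest p at 12 h, with a difference of -0.12 ± 0.08 (SE, adjusted p = 0.463, limma).

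Cox5a, a subunit on the matrix side, gave the largest difference of any tested member and comparison, 0.48 ± 0.31 at 18 h EDL minus sham (SE, adjusted p = 0.409, limma). It measured 7.34, 8.83, 8.15 and 8.05 at 18 h EDL, against 7.11, 7.34, 7.97 and 8.03 in sham. A single array, 18 h EDL replicate 2, lay above all 15 others, and the other 3 arrays of the 18 h group ran from 7.34 to 8.15. Without that array the difference of Cox5a was 0.23. A second, brighter probe set that the annotation gives to Cox5a and to another gene was not used. It is among 7 probe sets shared with a second gene, whose changes at 18 h EDL minus sham ran from -0.13 to 0.08. That probe set therefore did not show the difference of 0.48.

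The tissue-restricted isoforms of complex IV lay below the minimum level on all arrays. Cox6a2, Cox7a1 and Cox8b are forms of heart and skeletal muscle, and their highest values on any of the 16 arrays were 2.25, 2.31 and 4.77. Cox4i2, the form known from lung, ran from 2.31 to 2.93. Cox6b2 and Cox7b2, forms of the testis, lay at 2.22 on every array, the lowest value of the table. That held also in sham, where the sperm markers had a mean level of 4.25 to 5.96. The ubiquitous isoforms differed little: Cox6a1 by -0.06 ± 0.22, Cox6b1 by -0.01 ± 0.22 and Cox8a by -0.06 ± 0.08 at 12 h EDL minus sham (SE).

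**Figure D2:**
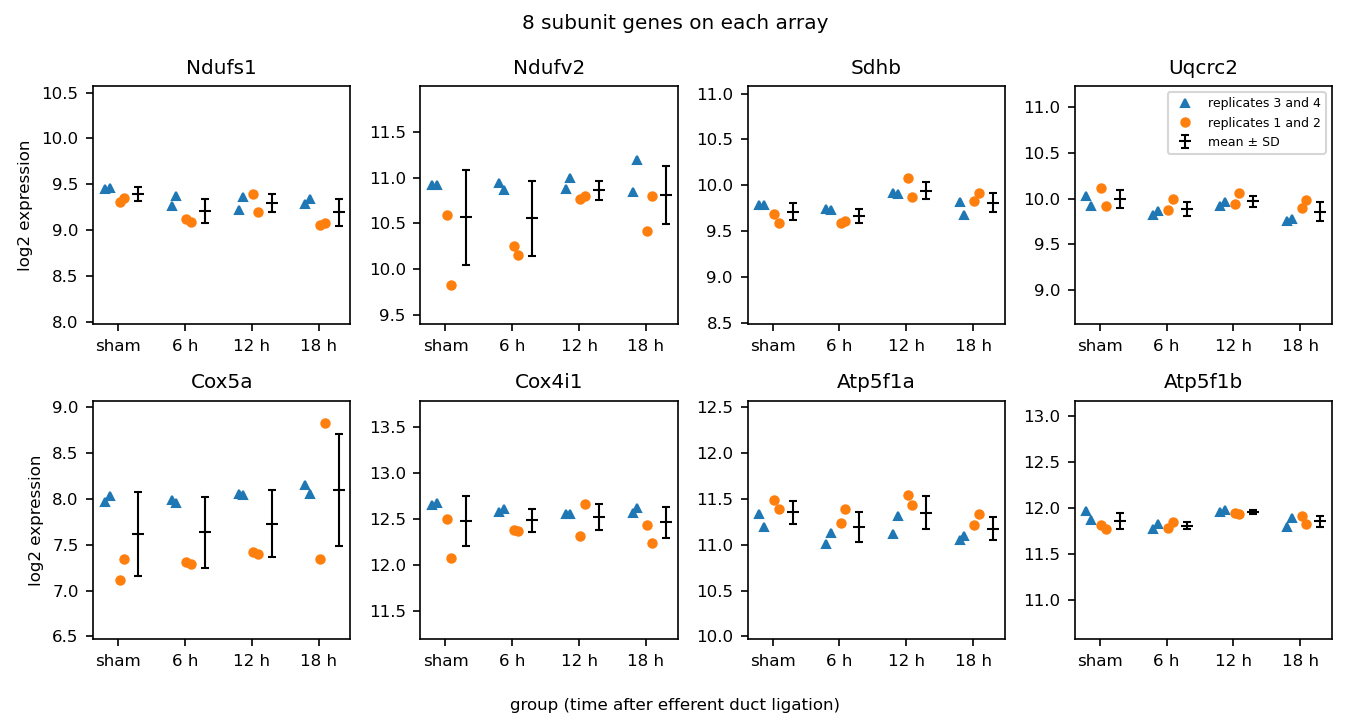
Log2 expression of 8 subunit genes on each of the 16 arrays, by group (sham, 6, 12 and 18 h EDL). Triangles are replicates 3 and 4, circles are replicates 1 and 2, and bars give the mean ± SD of 4 arrays. Sdhb is highest at 12 h EDL (9.87 to 10.08), and Cox5a has a single high array at 18 h EDL (8.83).

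Complex V, the ATP synthase, has a catalytic head of Atp5f1a to Atp5f1e, a membrane rotor to which Atp5mc3 belongs, and a stalk of Atp5pb, Atp5pd, Atp5pf and Atp5po. All 15 member genes were tested, and their median change was -0.03 at 6 h, 0.03 at 12 h and -0.01 at 18 h EDL minus sham. Atp5f1b, the catalytic beta subunit, measured 11.94, 11.93, 11.96 and 11.98 at 12 h EDL, against 11.81, 11.77, 11.97 and 11.87 in sham. At 6 h EDL it measured 11.78, 11.85, 11.77 and 11.82, and at 18 h EDL 11.91, 11.82, 11.79 and 11.89. The 12 h arrays of Atp5f1b all lay above the 6 h and the 18 h arrays and overlapped with the sham arrays.

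For Atp5f1b the difference was 0.15 ± 0.07 at 12 h EDL minus 6 h EDL (SE, adjusted p = 0.307, limma). It was 0.1 ± 0.07 at 12 h EDL minus sham (adjusted p = 0.541, limma) and -0.1 ± 0.07 at 18 h EDL minus 12 h EDL (adjusted p = 0.875, limma). Atp5f1a, the alpha subunit, had the smallest p of the complex at 6 and 18 h. It measured 11.21, 11.33, 11.05 and 11.1 at 18 h EDL, against 11.49, 11.39, 11.34 and 11.19 in sham. The groups overlapped, and the difference was -0.18 ± 0.11 at 18 h EDL minus sham (SE, adjusted p = 0.401, limma). Atp5mc3, a gene of the c subunit of the rotor, differed by 0.02 ± 0.11 at 12 h and 0.01 ± 0.11 at 18 h EDL minus sham (SE).

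The 10 genes that the symbols take in without being subunits included 6 tested ones. Atp5if1, an inhibitor that binds the ATP synthase and limits the breakdown of ATP, had the largest difference among them. It measured 11.15, 11.22, 11.32 and 11.37 at 12 h EDL and 10.93, 11.17, 11.42 and 11.6 at 18 h EDL, against 11.16, 10.6, 11.08 and 11.05 in sham. Most ligated arrays lay above the sham arrays, and the groups overlapped. The difference of Atp5if1 was 0.31 ± 0.16 at 18 h EDL minus sham (SE, adjusted p = 0.298, limma) and 0.35 ± 0.16 at 12 h EDL minus 6 h EDL (unadjusted p = 0.0475, adjusted p = 0.277, limma). Cox7a2l, which joins complexes into larger assemblies, differed by -0.03 ± 0.11 at 12 h and -0.09 ± 0.11 at 18 h EDL minus sham (SE). The complex I assembly factors Ndufaf3, Ndufaf4, Ndufaf7 and Ndufaf8 were tested and not called.

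The 11 untested members were Ndufb8, the 6 isoforms of complex IV named above, Ndufaf1, Ndufaf5, Ndufa4l2 and the pseudogene Cox6c-ps1. Ndufb8, a subunit found in every working complex I, had 1 probe set, which lay between 2.22 and 2.65 on all arrays and therefore gives no level for the gene. Ndufaf5 was the member nearest below the minimum, with a mean of 4.81 and values from 4.29 to 5.43. Ndufaf7 was the nearest above it, with a mean of 5.63. Another 7 probe sets were annotated to a subunit gene and to a second gene and were left out. None of them was called in any of the 5 comparisons. Atp5mc1, Atp5mc2, Cox7a2, Uqcrb, Ndufs5 and Ndufa10 were not among the members for this reason, while Cox5a had a probe set of its own. Subunits with symbols other than those chosen were not taken in either. Of the members' weaker probe sets, 4 passed the minimum level (for Ndufv3, Sdhd, Uqcrc2 and Ndufa7), and 0 were called, with changes from -0.28 to 0.22.

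The spread of the members within a group was mostly a difference between replicates 1 and 2 and replicates 3 and 4. With the group in the model, 51 of the 75 members were higher and 3 were lower in replicates 3 and 4 than in replicates 1 and 2 (54 called, 72.0%). Of all tested genes 34.6% were called, 19.8% higher and 14.8% lower. The median difference was 0.29 over the members and 0.03 over all tested genes. This comparison was added after the divide between the arrays had been seen, so its p-values describe that divide and are no independent evidence of it. The labels do not say what sets these replicates apart.

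**Figure D3:**
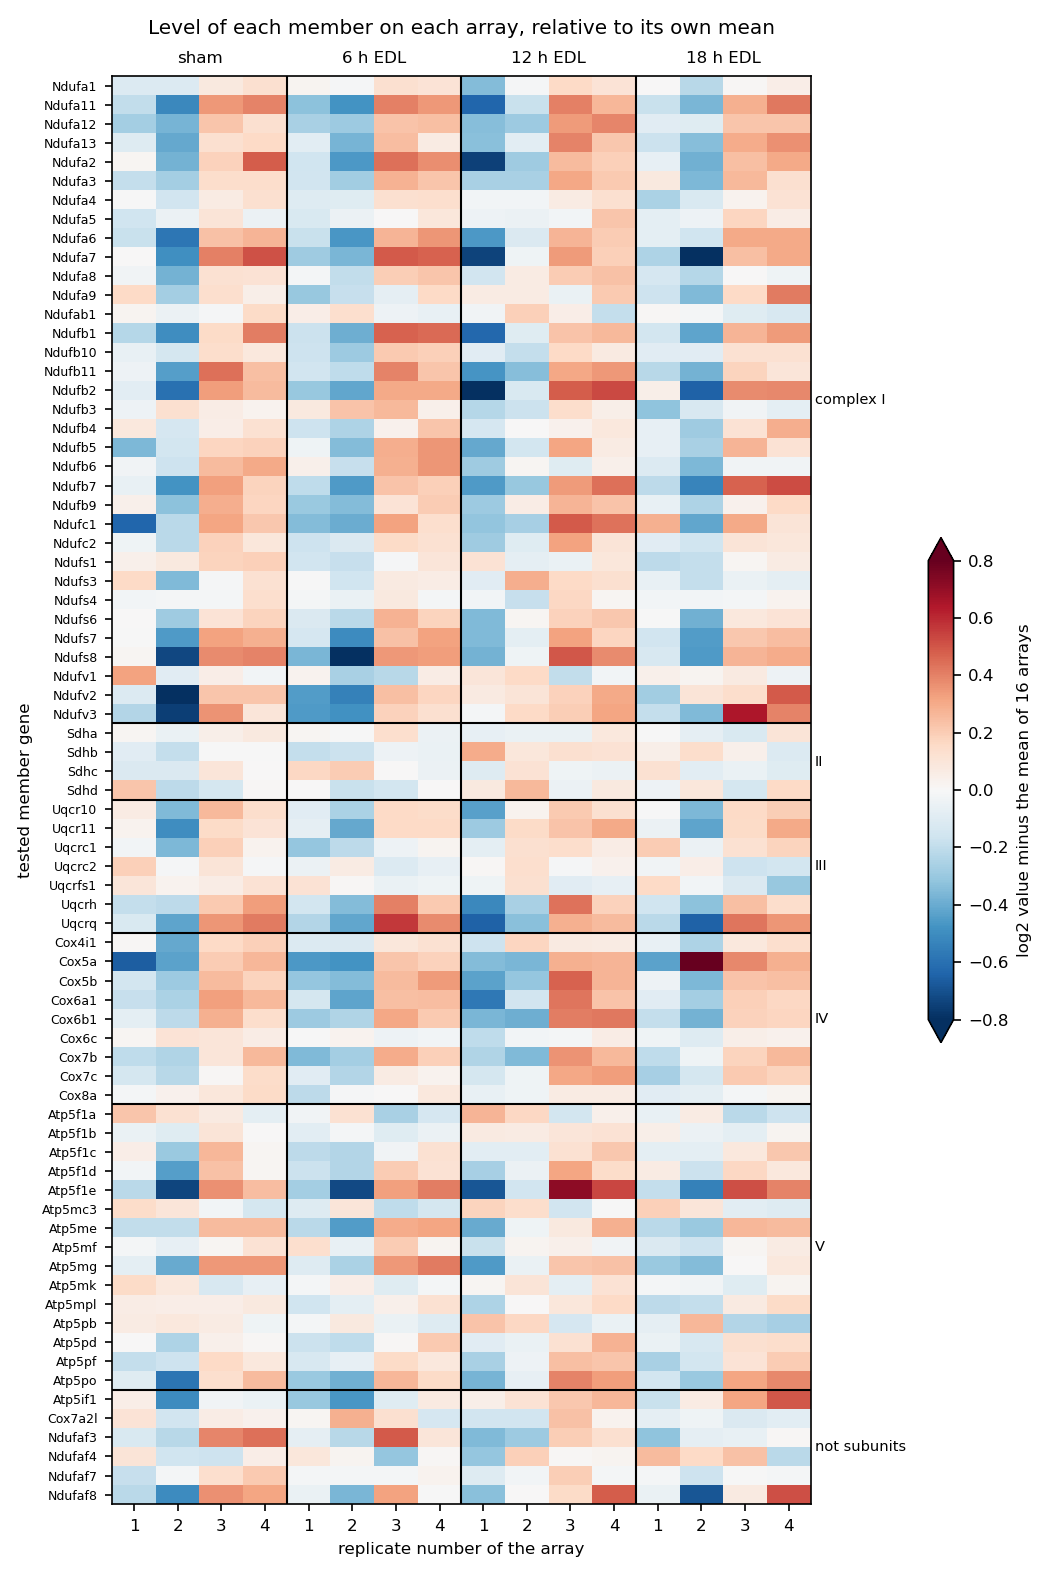
Level of the 75 tested members (rows, by complex) on the 16 arrays (columns, by group and replicate number), as the log2 value minus the gene's mean over all arrays. In every group most rows are higher on replicates 3 and 4 than on replicates 1 and 2, while the rows of complex II show no such step.

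The counts were taken for each complex. In complex I, 28 of 34 genes were higher in replicates 3 and 4 and 0 were lower, with a median difference of 0.39. Complex IV had 7 of 9 genes higher (median 0.47) and complex III 4 of 7 (median 0.35). In complex V, 9 of 15 were higher (median 0.24) and 3 were lower: Atp5f1a by -0.22, Atp5mc3 by -0.21 and Atp5pb by -0.2. In complex II, 0 of 4 were called, with differences from -0.05 to 0.06. Whether the complexes differed from each other was not tested.

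The differences reached their highest values in Atp5f1e and Uqcrq, followed by Ndufb2 and Ndufa7 at 0.74 each. Atp5f1e, the epsilon subunit of the synthase head, measured 11.12 to 11.59 in replicates 3 and 4 and 10.14 to 10.72 in replicates 1 and 2. The 8 arrays of each kind did not overlap, and the difference was 0.88 ± 0.11 (SE, adjusted p = 4.48e-05, limma). Uqcrq of complex III measured 10.78 to 11.09 in replicates 3 and 4 and 9.88 to 10.4 in replicates 1 and 2, a difference of 0.76 ± 0.08 (SE, adjusted p = 1.38e-05, limma). Ndufb2 of complex I measured 10.1 to 10.37 in replicates 3 and 4 and 9.0 to 9.89 in replicates 1 and 2, a difference of 0.74 ± 0.12 (SE, adjusted p = 0.000435, limma). Each of these 3 exceeded the largest change that any member showed after ligation.

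**Figure D4:**
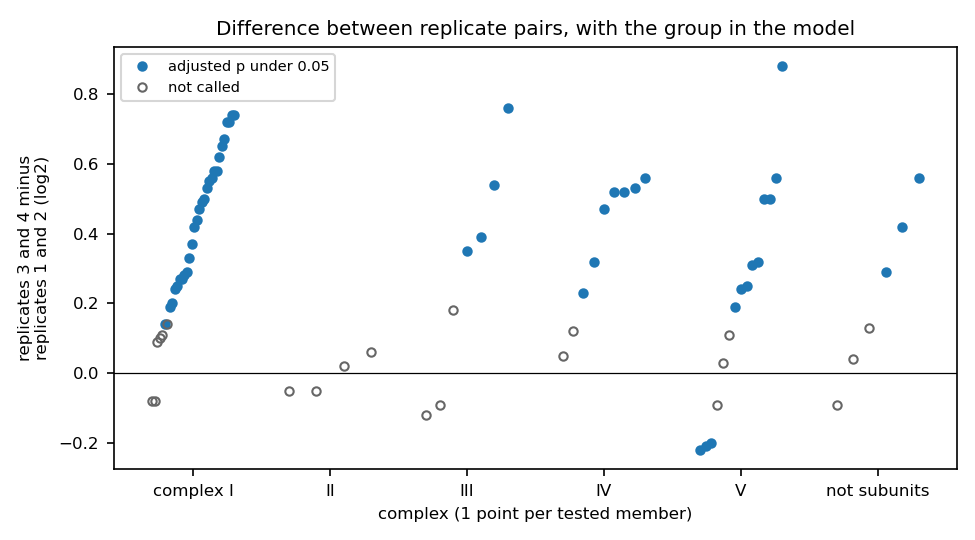
Difference between replicates 3 and 4 and replicates 1 and 2 (log2) for each of the 75 tested members, with the group in the model. Filled points have an adjusted p under 0.05. Complex I, III and IV lie mostly above 0, complex II lies at 0, and 3 called genes of complex V lie below 0.

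Other measures were read along the same divide, where 34.6% of all tested genes were called, 19.8% higher and 14.8% lower. Whether the count of a list differed from these shares was not tested. Of 75 tested genes of the mitochondrial ribosome, 51 were higher and 1 was lower in replicates 3 and 4, with a median of 0.28. Of 23 genes of mitochondrial import, 13 were higher and 2 lower. Some other mitochondrial lists did not lean to the higher side. Of 14 genes of electron carriers and ATP export, 4 were higher and 6 lower (median -0.08). Of 16 genes of pyruvate dehydrogenase and the citrate cycle, 1 was higher and 4 were lower (median 0.03). Of 6 initial segment markers, 2 were higher and 0 lower in replicates 3 and 4 (median 0.44). The share called was 31.2% in the list of pyruvate dehydrogenase and the citrate cycle and 33.3% among the initial segment markers. Both lie near the 34.6% of all tested genes. All 8 fibroblast markers were lower there, with a median of -1.63, and their mean level was 8.09 to 9.25 in replicates 3 and 4 and 9.87 to 10.7 in replicates 1 and 2. Of 7 tested macrophage markers, 6 were lower (median -0.97), and the mean level of the 8 on the array was 4.53 to 5.99 in replicates 3 and 4 and 5.93 to 7.15 in replicates 1 and 2. The hybridisation controls averaged 10.62 in replicates 3 and 4 and 9.79 in replicates 1 and 2. Differences between 3' and 5' probe sets, a measure of RNA integrity and labelling, did not follow the divide in the same way. That of beta-actin averaged 1.39 in replicates 3 and 4 of 12 and 18 h EDL, 1.18 in replicates 3 and 4 of sham and 6 h EDL and 1.41 in replicates 1 and 2. That of Gapdh averaged 0.24, 0.0 and 0.05 in the same 3 sets of arrays. The part of these measures in the members' divide was not tested.

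In complex I the divide was seen in every group. Whether its size differed between groups was not tested. Averaged over the tested subunits of complex I, relative to the sham mean, replicates 3 and 4 lay at 0.19 in sham, 0.2 at 6 h EDL, 0.2 at 12 h EDL and 0.18 at 18 h EDL. Replicates 1 and 2 lay at -0.19 in sham, -0.22 at 6 h EDL, -0.17 at 12 h EDL and -0.19 at 18 h EDL. The size was less even in complex IV, where replicates 3 and 4 lay at 0.18, 0.16, 0.25 and 0.17 in these groups. Replicates 1 and 2 of complex IV lay at -0.18, -0.22, -0.22 and -0.1. Over all 4 arrays of a group, complex I averaged 0.0 ± 0.24 in sham, -0.01 ± 0.25 at 6 h EDL, 0.02 ± 0.23 at 12 h EDL and -0.01 ± 0.22 at 18 h EDL (SD, n = 4). Complex II averaged 0.0 ± 0.08 in sham, 0.01 ± 0.02 at 6 h EDL, 0.08 ± 0.04 at 12 h EDL and 0.03 ± 0.05 at 18 h EDL (SD, n = 4).

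**Figure D5:**
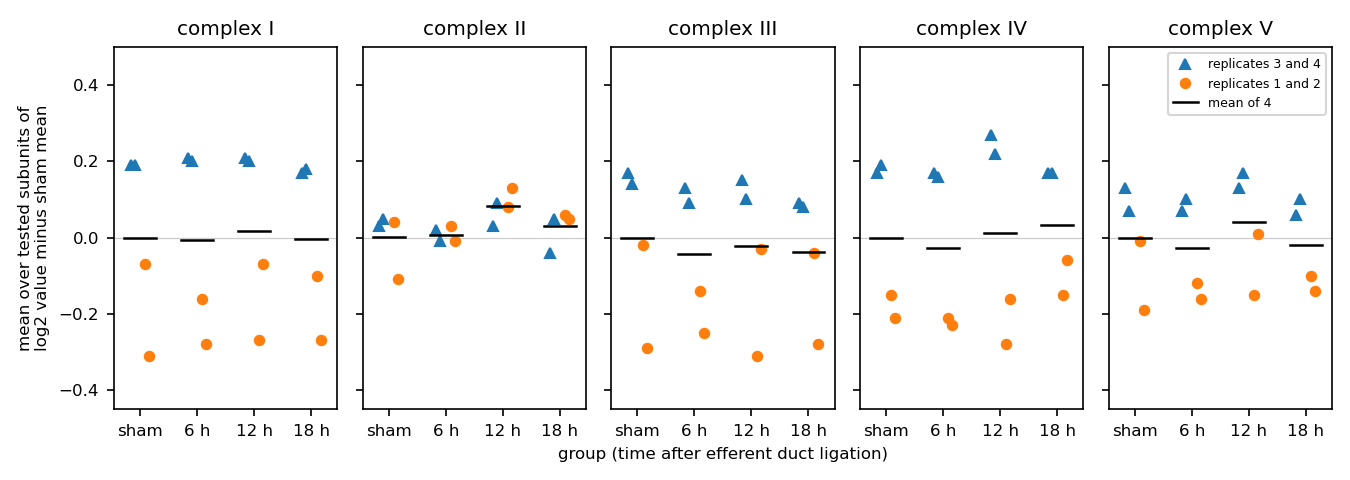
Mean over the tested subunits of each complex on each array, as the log2 value minus the sham mean, for sham, 6, 12 and 18 h EDL. Triangles are replicates 3 and 4, circles are replicates 1 and 2, and lines are means of 4 arrays. In complex I the triangles lie near 0.2 and the circles near -0.2 in each group, and the group means stay between -0.01 and 0.02.

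With the divide as a block, the members were measured more closely and 0 of 75 were again called in each of the 5 comparisons. The median interval then reached 0.21 to either side, in place of 0.31. It lay within 0.5 on either side of 0 for 74 members at 6 h, 69 at 12 h and 70 at 18 h EDL minus sham. The share of all tested probe sets called in this fit was 0.41% at 6 h, 12.9% at 12 h and 16.2% at 18 h EDL minus sham. Between times it was 9.06% at 12 h EDL minus 6 h EDL and 0.0149% at 18 h EDL minus 12 h EDL. The members with an unadjusted p under 0.05 numbered 1, 3 and 5, and the lowest adjusted p was 0.496, 0.0858 and 0.0944 (limma). At 12 h EDL minus 6 h EDL there were 6 such members, and the lowest adjusted p was 0.0597, that of Sdhb (limma). At 18 h EDL minus 12 h EDL there was 1, with a lowest adjusted p of 0.407 (limma). How many of all tested genes reached such an unadjusted p in this fit was not counted. The gene behind 0.0858 was Sdhb at 12 h, and the gene behind 0.0944 was Ndufs1 at 18 h EDL minus sham, with a difference of -0.2 ± 0.08 (SE).

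Genes that build, feed or regulate the complexes were counted from lists beside the subunits. Of all tested genes 8.75% were called at 12 h EDL minus sham, 11.1% at 18 h EDL minus sham and 4.73% at 12 h EDL minus 6 h EDL. Whether the count of a list differed from these shares was not tested. In the assembly of cytochrome oxidase 12 genes were tested, in mitochondrial import 23, in the mitochondrial ribosome 75 and among mitochondrial antioxidant genes 6, and 0 of each were called in any comparison. Among 14 other assembly factors, Atpaf1, which helps build the head of the ATP synthase, measured 6.7, 6.87, 6.74 and 7.02 at 12 h EDL, against 7.41, 7.31, 7.26 and 7.34 at 6 h EDL. The groups did not overlap, and Atpaf1 fell by 0.5 ± 0.09 on the log2 scale at 12 h EDL minus 6 h EDL (SE, adjusted p = 0.00881, limma). In sham Atpaf1 measured 7.0, 7.14, 7.07 and 7.21, below the 6 h arrays and overlapping with the 12 h arrays. It was the 1 gene of that list called in any comparison, and it was not called against sham at any time.

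Electron carriers and exchange of ATP were covered by 14 tested genes, of which 2 fell and 0 rose at 18 h EDL minus sham. In that comparison 11.1% of all tested genes were called, and so small a count cannot be told apart from that share. Etfb, a subunit of the flavoprotein that brings electrons from fatty acid oxidation to the chain, measured 8.35, 8.42, 9.08 and 9.15 at 18 h EDL, against 9.66, 9.72, 9.99 and 10.06 in sham. All 18 h arrays of Etfb lay below all sham arrays, and the change was -1.11 ± 0.2 (SE, adjusted p = 0.00235, limma). Ucp2, a carrier of the inner membrane, measured 10.27, 10.49, 9.74 and 10.02 at 18 h EDL, against 10.95, 11.18, 10.6 and 10.74 in sham. Its groups did not overlap either, and the change was -0.74 ± 0.19 (SE, adjusted p = 0.0233, limma). Ucp2 was called in 12 of the 16 fits that left out 1 array.

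Of 16 tested genes of pyruvate dehydrogenase and the citrate cycle, 1 fell and 0 rose at 18 h EDL minus sham, against 11.1% called of all tested genes. The gene that fell was Idh2, the mitochondrial isocitrate dehydrogenase that makes NADPH, with a change of -0.5 ± 0.14 (SE, adjusted p = 0.0365, limma). With the 3 array sets as a block the change of Idh2 was -0.56 with an adjusted p of 0.059 (limma), and it was called in 10 of the 16 fits that left out 1 array. Of 4 tested kinases and phosphatases of pyruvate dehydrogenase, Pdk1, a kinase that switches the enzyme off, changed by -0.91 ± 0.23 at 18 h EDL minus sham (SE, adjusted p = 0.0206, limma). Its groups overlapped through sham replicate 1, and with the 3 array sets as a block the change of Pdk1 was -0.81 with an adjusted p of 0.0956 (limma). It was called in 11 of the 16 fits that left out 1 array.

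Of 10 tested regulators of mitochondrial genes, 1 rose and 0 fell at 18 h EDL minus sham, against 11.1% called of all tested genes. Pprc1, a coactivator related to PGC-1alpha that responds to growth signals, measured 6.91, 7.02, 7.08 and 6.35 at 18 h EDL, against 5.85, 5.73, 5.78 and 5.96 in sham. All 18 h arrays of Pprc1 lay above all sham arrays, and the change was 1.01 ± 0.18 (SE, adjusted p = 0.00186, limma). Pprc1, Etfb and Atpaf1 remained called with each of the 16 arrays left out in turn.

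Glycolysis, which makes ATP outside the mitochondrion, was covered by 15 tested genes, of which 3 rose at 12 h and 2 rose and 1 fell at 18 h EDL minus sham. Of all tested genes 8.75% and 11.1% were called at these times. Slc2a1, a glucose transporter, measured 8.62, 8.59, 9.32 and 8.91 at 12 h EDL and 8.85, 8.77, 9.17 and 8.87 at 18 h EDL, against 7.92, 8.02, 8.43 and 8.29 in sham. All arrays of both times lay above all sham arrays, with changes of 0.69 ± 0.16 at 12 h (SE, adjusted p = 0.0168, limma) and 0.75 ± 0.16 at 18 h (adjusted p = 0.00859, limma). Tpi1, triose phosphate isomerase, rose by 0.42 ± 0.11 at 12 h (adjusted p = 0.0343, limma) and 0.43 ± 0.11 at 18 h (adjusted p = 0.0272, limma). Pgam1, phosphoglycerate mutase, rose by 0.26 ± 0.07 at 12 h EDL minus sham (SE, adjusted p = 0.0489, limma) and was called in 0 of the 16 fits that left out an array. Hk2, hexokinase 2, changed by -1.04 ± 0.3 at 18 h EDL minus sham (SE, adjusted p = 0.0437, limma), and its groups overlapped. Tpi1 was called in 11 of these 16 fits at each time and Hk2 in 5 at 18 h, while Slc2a1 was called in 15 at 12 h and in all 16 at 18 h. With the 3 array sets as a block, the change of Tpi1 was 0.34 at both 12 and 18 h (adjusted p = 0.148 and 0.13, limma). In that fit Pgam1 changed by 0.29 at 12 h (adjusted p = 0.0559, limma) and Hk2 by -0.74 at 18 h (adjusted p = 0.0854, limma). The medians of the glycolysis list, 0.02 at 12 h and 0.02 at 18 h EDL minus sham, stood beside 0.03 for all tested genes at both times.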

How the data were processed

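The values are the deposited log2 values of 16 Affymetrix arrays, 1 per probe set and array, made by the authors with GCRMA (background correction by probe sequence, then quantile normalization), per the submitters' processing notes. Its version: not given in the sources used here. Quantile normalization brings the arrays' distributions together, so a change shared by all genes would not be seen. Values ran from 2.22, a floor, to 15.1, and levels of different probe sets cannot be compared.

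Of 31099 probe sets, 57 controls were left out. The 2016 platform annotation gave 1 symbol to 20826, several to 436 and none to 9780. Probe sets at or above 5 in at least 4 arrays (13410) were tested with limma 3.58.1 (lmFit and eBayes, R 4.3.3) in 1 fit of 4 group means, with Benjamini-Hochberg adjustment over them within each of 5 comparisons. The p-values measure the spread between these arrays. The fit was tested on simulated data. Pathway and marker lists were set by hand.

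The members and lists were chosen with earlier results of these data known. Named were the member with the smallest p per complex and comparison where none was called, core subunits, complex II, tissue isoforms, non-subunits, the members next to the minimum level, and, at 12 h and at 18 h each, up to 3 called genes per pathway list. Atpaf1, Ndufa7, Ndufb2, Uqcrq and Atp5f1e were named after their values were seen, and Atp5pf for its promoter motifs. The comparison of replicates 3 and 4 with 1 and 2 and the genes with a mean of 9 or more were also added then.

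The alternatives were limma with a robust trended prior, a minimum level of 7 or none, centred or again quantile-normalized arrays, only the 2 groups compared, blocks for the replicate number, for replicates 1 and 2 against 3 and 4 and for 3 array sets, fits within each replicate pair, probe sets averaged by gene, an adjusted p under 0.01, members without the non-subunits, and each array left out. The block for sets parts replicates 1 and 2 of all groups, replicates 3 and 4 of sham and 6 h EDL, and replicates 3 and 4 of 12 and 18 h EDL.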

Additional observations from a re-analysis of the deposited data

Results flagged for a closer look

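Among the 120 groups of 4 arrays that the named members make up, 3 held a value far from its group by Dixon's criterion, which chance alone reaches in about 1 of 20. Ndufaf7 measured 5.66 in 6 h EDL replicate 4, with the other 3 arrays at 5.62. Ndufaf7 also measured 5.47 in 18 h EDL replicate 2, with the others at 5.62 to 5.63. Sdha measured 10.49 in 12 h EDL replicate 4, with the others at 10.34 to 10.35. No change of Ndufaf7 or Sdha was called in any comparison.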

How the results depend on the processing

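The count of 0 called members held in each of the 5 comparisons under every alternative with 1 exception: the block for 3 array sets gave 1 member called higher at 12 h EDL minus sham and 1 at 12 h EDL minus 6 h EDL. Both are Sdhb, at 0.35 and 0.39. In that fit 8.81% and 5.81% of all tested probe sets were called. Some other fits called hardly any probe set, so their count of 0 members says little. At 6 h EDL minus sham, 0.0298% were called within replicates 1 and 2 and 0.0224% within replicates 3 and 4. At 18 h EDL minus 12 h EDL these shares were 0.82% and 0.00746%. With each of the 16 arrays left out in turn the count was 0 throughout, and the median change of the members ran from -0.1 to 0.072 at 6 h, -0.064 to 0.102 at 12 h and -0.096 to 0.061 at 18 h EDL minus sham, from -0.034 to 0.112 at 12 h EDL minus 6 h EDL and from -0.107 to 0.035 at 18 h EDL minus 12 h EDL. Under the other 14 settings it stayed between -0.045 and 0.057. Of 4195 changes of named members under the alternatives, 2 became called (Sdhb as above) and 287 that were not called had the other sign. Groups share replicate numbers, but no label says that these are pairs, so they were not taken as such. Deviations from the group means correlated at 0.007 to 0.556 between arrays of the same number. Between arrays of different numbers they correlated at -0.601 to 0.63. With the replicate block 0 members were called in all 5 comparisons, and 10 of the 16 arrays correlated best with their own number. With 4 arrays per group the median 95% interval of a member reached 0.31 on the log2 scale to either side, and 0.21 with replicates 1 and 2 against 3 and 4 as a block.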
